A study of Saccharomyces cerevisiae with 45 samples.

Results

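The factors described here take part in removing the cap of messenger RNA, or in the steps around it, in budding yeast (Saccharomyces cerevisiae). Such factors gather with messenger RNA in cytoplasmic granules called P-bodies. They are the 10 genes DHH1, DCP1, DCP2, EDC1, EDC2, EDC3, PAT1, XRN1, LSM1 and SCD6, taken by symbol from the probe annotation. All 10 were measured, each by 1 probe set, among 5449 genes in all. Wild-type cells of the strain labelled BY4147 carried the genotype MATa his3D1 leu2D0 met15D0 ura3D0 in every group, controls included. They grew in rich medium at 25 °C and were moved to a water bath at 37, 42 or 46 °C. Total RNA from 41 arrays in 16 groups was used. The heated groups were 37 °C for 1, 3, 5, 7, 10, 15, 40 and 80 min (3 arrays each), 42 °C for 3, 5, 10 and 40 min (2 each) and 46 °C for 10 and 30 min (2 each). Unheated cells at 25 °C were measured on 3 arrays of batch A863, the batch of the 37 °C times up to 40 min, and on 2 arrays of batch A927, the batch of the 42 °C times. The 37 °C 80 min arrays came from batch A705 and the 46 °C arrays from batch P230, and neither batch held a control. The labels do not state that replicates came from different cultures, so the p-values cover array-to-array spread that could be purely technical.

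A messenger RNA that has lost most of its poly-A tail can be decapped and then digested from its capped end. Dcp2 is the enzyme that cuts the cap and Dcp1 is its partner subunit. Edc1, Edc2 and Edc3 enhance decapping, Edc1 and Edc2 being small related proteins and Edc3 a scaffold that also helps P-bodies assemble. Pat1 and the ring of Lsm1 to Lsm7 bind the shortened tail and promote decapping, the helicase Dhh1 and the RNA-binding protein Scd6 repress translation, and Xrn1 degrades the decapped RNA. Stress that lowers translation is known to enlarge P-bodies in yeast.

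The values are log2 intensities after RMA, which sets arrays to a common distribution and so measures a transcript relative to the others, not per cell. The array medians fell into 3 sets, 10.20 to 10.26 in batches A863 and A705, 10.12 to 10.20 in A927 and A961, and 9.85 to 9.86 in P230. Levels from different sets may therefore have been normalised apart. Tests use changes from the control of the same set, and levels set side by side across sets are a description with no test. The 4 arrays labelled 42 °C 1 and 80 min (batch A961) were left out, since their replicates correlated at 0.612 and 0.619 where all others correlated at 0.992 to 0.999. The deleted genes URA3, LEU2 and MET17 read 3.88 to 5.93 on all 41 arrays, and every decapping factor read above 8. HIS3 read 10.27 to 12.38 although the genotype lists it as mutated. Of the mating type a genes, MFA1, MFA2, STE2 and BAR1 read 9.99 to 14.03. MF(ALPHA)1, MF(ALPHA)2 and STE3, which mark the other mating type, read 4.15 to 8.45, and SAG1, also of that type, read 8.37 to 9.53.

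Heat changed the decapping factors unequally. In what follows, rose and fell are kept for changes of 2-fold or more (1 on the log2 scale) that also had an adjusted p under 0.05 in limma. The p-values test against no change, not against 2-fold, so the interval of a called change can reach under 2-fold. Over all 12 heated groups set against 25 °C, EDC2 rose in 9, EDC1 in 2 and DHH1 in 1, while EDC3 fell in 2. The remaining members, DCP1, DCP2, PAT1, XRN1, LSM1 and SCD6, passed at no time, with changes of -0.98 to 0.45. DCP1 and XRN1 at 42 °C 10 min lay so near the limit that leaving out 1 array moved each past it, as given below. The 12 comparisons share their controls, so they are not independent of each other.

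**Figure D1:**
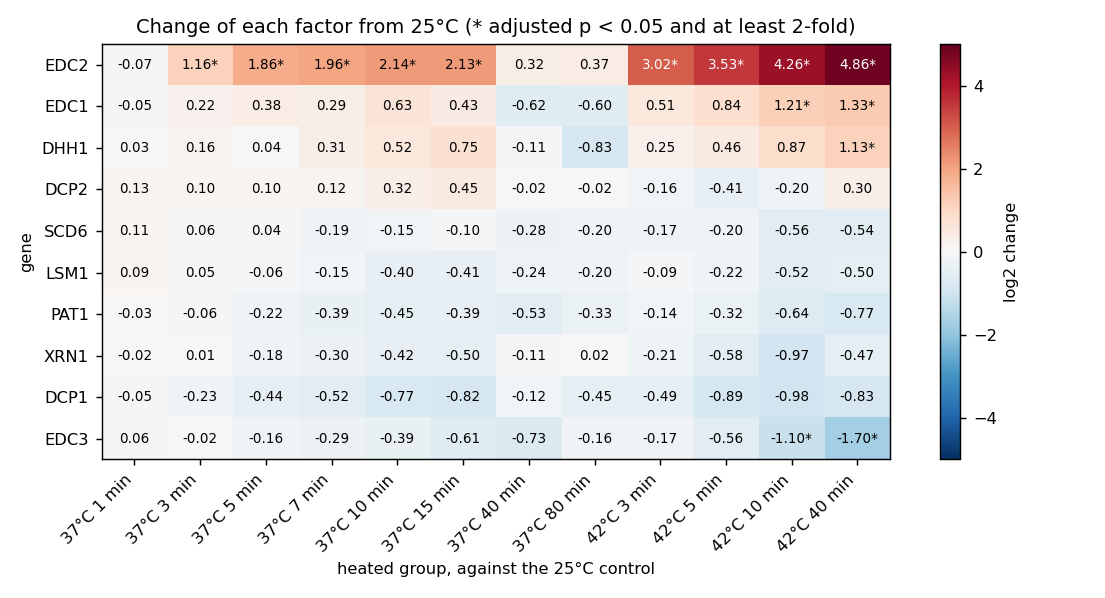
Log2 change of each factor (rows) from 25 °C in each heated group (columns), with an asterisk on changes of 2-fold or more that had an adjusted p under 0.05. EDC2 runs from -0.07 at 37 °C 1 min to 4.86 at 42 °C 40 min, and EDC3 reaches -1.70 in the same last column.

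At 37 °C, 0 of the 10 members changed after 1 min by limma's test, where 0.239% of all genes did. At an unadjusted p under 0.05, 1 member and 1527 of all 5449 genes passed. From 3 to 15 min 1 member changed at each time, EDC2, against a background of 3.25% of all genes at 3 min, 11.5% at 5 min, 16% at 7 min, 23.9% at 10 min and 29.6% at 15 min. After 40 and 80 min 0 members had changed, where 14.3% and 7.96% of all genes had. At an unadjusted p under 0.05, 6 and 8 members passed, as did 4287 and 4122 of all 5449 genes. At 42 °C 1 member changed after 3 min (all genes 9.03%), 1 after 5 min (15.3%), 3 after 10 min (25.6%) and 4 after 40 min (45.6%). The share of members exceeded the background at 37 °C 3 min and at 42 °C 3 and 10 min and lay below it in the other heated groups, so the results lie in which members moved rather than in how many. With no minimum change, 9 of 10 members passed at 37 °C 15 min, where 85.1% of all genes did, and 10 of 10 at 42 °C 40 min, where 87% did. The median change of the 10 members was -0.25 at 37 °C 15 min and -0.49 at 42 °C 40 min, beside medians of 0.06 and 0.01 over all genes.

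EDC2 (YER035W) was the member that changed most. Its unheated level was 10.70, 10.66 and 10.63 on the 3 arrays of batch A863. It read 10.65, 10.57 and 10.55 after 1 min at 37 °C, 11.83, 11.84 and 11.80 after 3 min, and 12.64, 12.47 and 12.47 after 5 min. The arrays at 1 min overlapped the control and those at 3 min lay wholly above it. The level was 12.62, 12.63 and 12.61 after 7 min, 12.89, 12.74 and 12.79 after 10 min, and 12.77, 12.80 and 12.79 after 15 min. The arrays of 5 and 7 min overlapped, as did those of 10 and 15 min, so these neighbours in the order of levels were not separated by their spread. After 40 min the level was back at 10.93, 11.03 and 10.99, and after 80 min it was 11.00, 11.02 and 11.08. The change from 25 °C was 1.16 ± 0.06 (SE) at 3 min (adjusted p = 3.78e-16), 2.14 ± 0.06 at 10 min, 2.13 ± 0.06 at 15 min and 0.32 ± 0.06 at 40 min. From 15 to 40 min EDC2 fell by 1.80 ± 0.06 (adjusted p = 4.57e-22). With the 4 disagreeing arrays of batch A961 added to the fit, the 3 min change no longer passed (adjusted p = 0.0862).

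At 42 °C EDC2 climbed further and had not come down by 40 min. The control of batch A927 read 9.19 and 9.13. Heated arrays read 12.15 and 12.20 after 3 min, 12.71 and 12.66 after 5 min, 13.47 and 13.37 after 10 min, and 14.004 and 14.03 after 40 min. Each time lay above the one before without overlap. The change was 3.02 ± 0.08 at 3 min, 3.53 ± 0.08 at 5 min, 4.26 ± 0.08 at 10 min and 4.86 ± 0.08 at 40 min (adjusted p = 1.67e-31). Ranked by rise among all 5449 genes, EDC2 stood at place 46 at 3 min, 42 at 10 min and 67 at 40 min, and at place 180 after 10 min at 37 °C. From 10 to 40 min it read higher by 0.60 ± 0.08, short of 2-fold.

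The unheated level of EDC2 differed between the batches. The A927 control minus the A863 control was -1.503 (9.16 ± 0.04, SD, n = 2, and 10.66 ± 0.03, n = 3), or -1.39 after all arrays were quantile normalised together. Only 77 of 5449 genes (1.41%) differed more between the controls. Its heated levels lay closer together, at 12.17 ± 0.04 and 11.82 ± 0.02 after 3 min at 42 and 37 °C, 12.68 ± 0.04 and 12.53 ± 0.10 after 5 min, and 13.42 ± 0.07 and 12.81 ± 0.07 after 10 min. After 40 min the levels were 14.02 ± 0.02 and 10.98 ± 0.05. The larger changes at 42 °C, those at 40 min included, therefore coincide with a lower starting level, whose part in them was not tested.

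**Figure D2:**
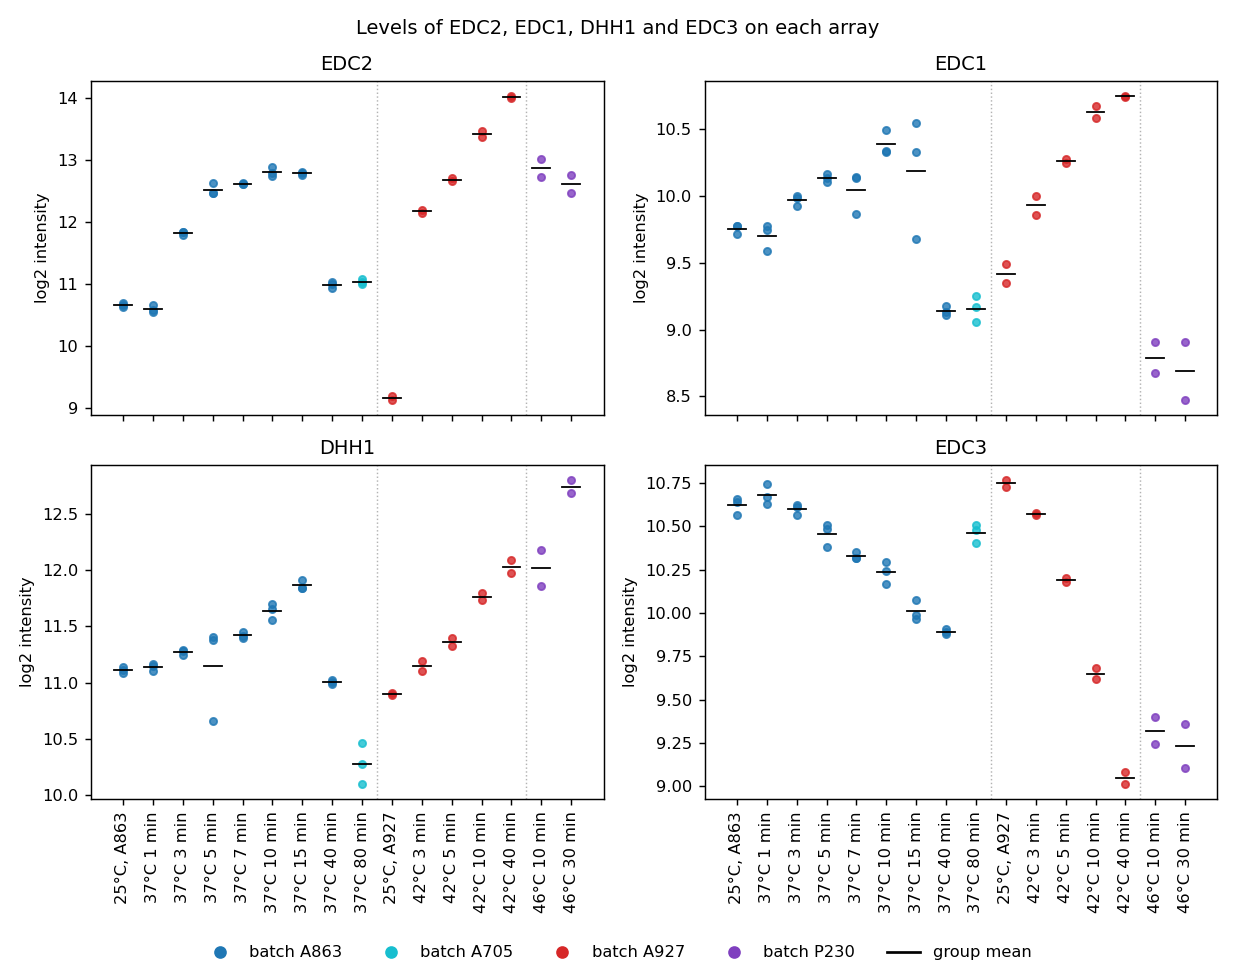
Log2 intensity of EDC2, EDC1, DHH1 and EDC3 on each array (points, coloured by batch) with the group mean (line), by temperature and time. EDC2, EDC1 and DHH1 climb up to 10 or 15 min at 37 °C and stay high at 42 °C 40 min. At 37 °C 40 min EDC2 lies 0.32 above its control mean, DHH1 just below its control and EDC1 below its control (-0.62), while EDC3 goes down at both temperatures. Dotted lines part the 3 temperature series, whose levels may have been normalised apart.

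EDC1 (YGL222C), the relative of EDC2, had group means above its control from 3 to 15 min at 37 °C, below it at 40 min, and above it at all times at 42 °C. Unheated cells read 9.71, 9.78 and 9.77 in batch A863, and cells at 37 °C read 10.49, 10.33 and 10.33 after 10 min. The 10 min arrays lay above the control, with a change of 0.63 ± 0.12 (adjusted p = 3.29e-05), less than 2-fold. At 15 min the arrays disagreed, with 10.55, 9.68 and 10.33, so that the second lay at the level of the control and the others above it. After 40 min the level was 9.13, 9.17 and 9.11, below every control array, a change of -0.62 ± 0.12. From 15 to 40 min EDC1 fell by 1.04 ± 0.12 (adjusted p = 7.79e-09). Without the first 15 min array the difference was -0.86 and without the third -0.97, and each of these would miss the 2-fold limit.

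At 42 °C EDC1 rose. The A927 control read 9.35 and 9.49, and heated arrays read 10.00 and 9.86 after 3 min, 10.25 and 10.28 after 5 min, 10.67 and 10.59 after 10 min, and 10.75 and 10.74 after 40 min. Every heated array lay above both controls. The change was 1.21 ± 0.15 at 10 min (adjusted p = 2.06e-08) and 1.33 ± 0.15 at 40 min. EDC1 and EDC2 thus both read above their controls from 3 to 15 min at 37 °C, apart from that array, and throughout at 42 °C, but at 37 °C 40 min EDC1 stood below its control and EDC2 slightly above. The difference between these genes was not tested.

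DHH1 (YDL160C), which encodes a DEAD-box helicase that represses translation, read 11.12, 11.08 and 11.14 in unheated cells of batch A863. At 37 °C it read 11.70, 11.66 and 11.56 after 10 min and 11.84, 11.91 and 11.85 after 15 min, all above the control. The change at 15 min was 0.75 ± 0.11 (adjusted p = 2.84e-07), under 2-fold. At 5 min 1 array read 10.66 and the other 2 read 11.38 and 11.41, so that time is poorly defined. The same array stood apart for XRN1 (11.73 beside 12.04 and 12.04) and DCP1 (11.31 beside 11.02 and 11.03). For EDC1 it lay between the others (10.14 beside 10.16 and 10.11). After 40 min the level of DHH1 was 10.99, 11.00 and 11.02, just under the control. After 80 min, in batch A705, it was 10.10, 10.27 and 10.47, a change of -0.83 ± 0.11 in which batch and time cannot be told apart. At 42 °C DHH1 read 10.89 and 10.91 in unheated cells, 11.10 and 11.19 after 3 min, 11.79 and 11.74 after 10 min, and 12.09 and 11.97 after 40 min. It rose by 1.13 ± 0.14 at 40 min (adjusted p = 4.81e-09), following 0.87 ± 0.14 at 10 min. The 95% confidence interval of the 40 min change, ± 0.28, includes values under 2-fold.

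The mean of EDC3 (YEL015W), the scaffold, went the other way from EDC1, EDC2 and DHH1 from 3 to 15 min at 37 °C and throughout at 42 °C. At 37 °C 40 min EDC1 (-0.62) and DHH1 (-0.11) lay below the control, as EDC3 did. At 37 °C EDC3 read 10.64, 10.57 and 10.66 before heating, 9.99, 10.08 and 9.97 after 15 min, and 9.91, 9.89 and 9.88 after 40 min. Heated arrays lay below the control at both times, with changes of -0.61 ± 0.05 and -0.73 ± 0.05, under 2-fold. At 80 min it read 10.40, 10.51 and 10.48. At 42 °C EDC3 read 10.77 and 10.73 in the control, 10.20 and 10.18 after 5 min, 9.68 and 9.62 after 10 min, and 9.08 and 9.02 after 40 min. It fell by 1.10 ± 0.065 at 10 min (adjusted p = 5.93e-16) and fell by 1.70 ± 0.065 at 40 min (adjusted p = 2.16e-21). With all arrays quantile normalised together the 10 min change was -0.96, short of 2-fold.

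The subunits of the decapping enzyme itself moved differently from each other. DCP1 (YOL149W) read 11.56, 11.54 and 11.57 in unheated cells of batch A863, 10.69, 10.83 and 10.82 after 10 min at 37 °C, and 10.72, 10.62 and 10.85 after 15 min. All heated arrays at these times lay below the control, with a change of -0.82 ± 0.09 at 15 min (adjusted p = 2.05e-09). At 40 min it was 11.33, 11.47 and 11.50, with a change of -0.12 ± 0.09. At 42 °C DCP1 went from 11.71 and 11.85 to 10.77 and 10.81 after 10 min and 10.95 and 10.93 after 40 min. Without the first A927 control array the 10 min change of DCP1 was -1.05, and without the second 10 min array -1.001, both past 2-fold. The 10 min change of -0.98 ± 0.12 was, among the comparisons with 25 °C, the nearest of the values that missed the 2-fold limit, beside -1.10 for EDC3 just inside it. DCP2 (YNL118C), the catalytic subunit, read 10.21, 10.20 and 10.21 unheated and 10.60, 10.69 and 10.67 after 15 min at 37 °C, a change of 0.45 ± 0.05 (adjusted p = 5.55e-09). At 42 °C it dipped from 10.44 and 10.47 to 10.07 and 10.03 after 5 min, then read 10.72 and 10.79 after 40 min. These were changes of -0.41 ± 0.07 and 0.30 ± 0.07, both under 2-fold.

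XRN1 (YGL173C), the exonuclease that follows decapping, changed by less than 2-fold in each comparison with 25 °C. At 37 °C it read 12.13, 12.12 and 12.12 before heating, 11.60, 11.68 and 11.56 after 15 min and 12.05, 11.95 and 12.04 after 40 min. At 42 °C it read 11.92 and 12.06 before heating, 11.08 and 10.96 after 10 min and 11.59 and 11.45 after 40 min. The lowest point lay at 10 min, with a change of -0.97 ± 0.07 (adjusted p = 3.47e-13), and the 40 min arrays stood between it and the control. That change was -1.04 without the first A927 control array and -1.03 without the first 10 min array, past 2-fold in both. XRN1 read 0.50 ± 0.07 higher at 40 than at 10 min.

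Of the tail-binding factors, PAT1 (YCR077C) read 11.51, 11.51 and 11.49 in unheated cells of batch A863, 11.10, 11.05 and 11.01 after 10 min at 37 °C, and 10.92, 11.02 and 10.99 after 40 min. At 42 °C it went from 11.70 and 11.73 to 10.93 and 10.96 after 40 min, a change of -0.77 ± 0.06 (adjusted p = 1.04e-13). Its partner LSM1 (YJL124C) went from 11.86, 11.87 and 11.93 to 11.41, 11.58 and 11.45 after 15 min at 37 °C, and from 12.20 and 12.21 to 11.70 and 11.71 after 40 min at 42 °C. The changes were -0.41 ± 0.05 and -0.50 ± 0.06. SCD6 (YPR129W) changed by -0.10 ± 0.06 at 37 °C 15 min, with arrays of 11.29, 11.22 and 11.20 overlapping a control of 11.36, 11.28 and 11.37, and by -0.54 ± 0.07 at 42 °C 40 min. PAT1 and LSM1 lay below the control on every array at the times given, all by less than 2-fold.

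**Figure D3:**
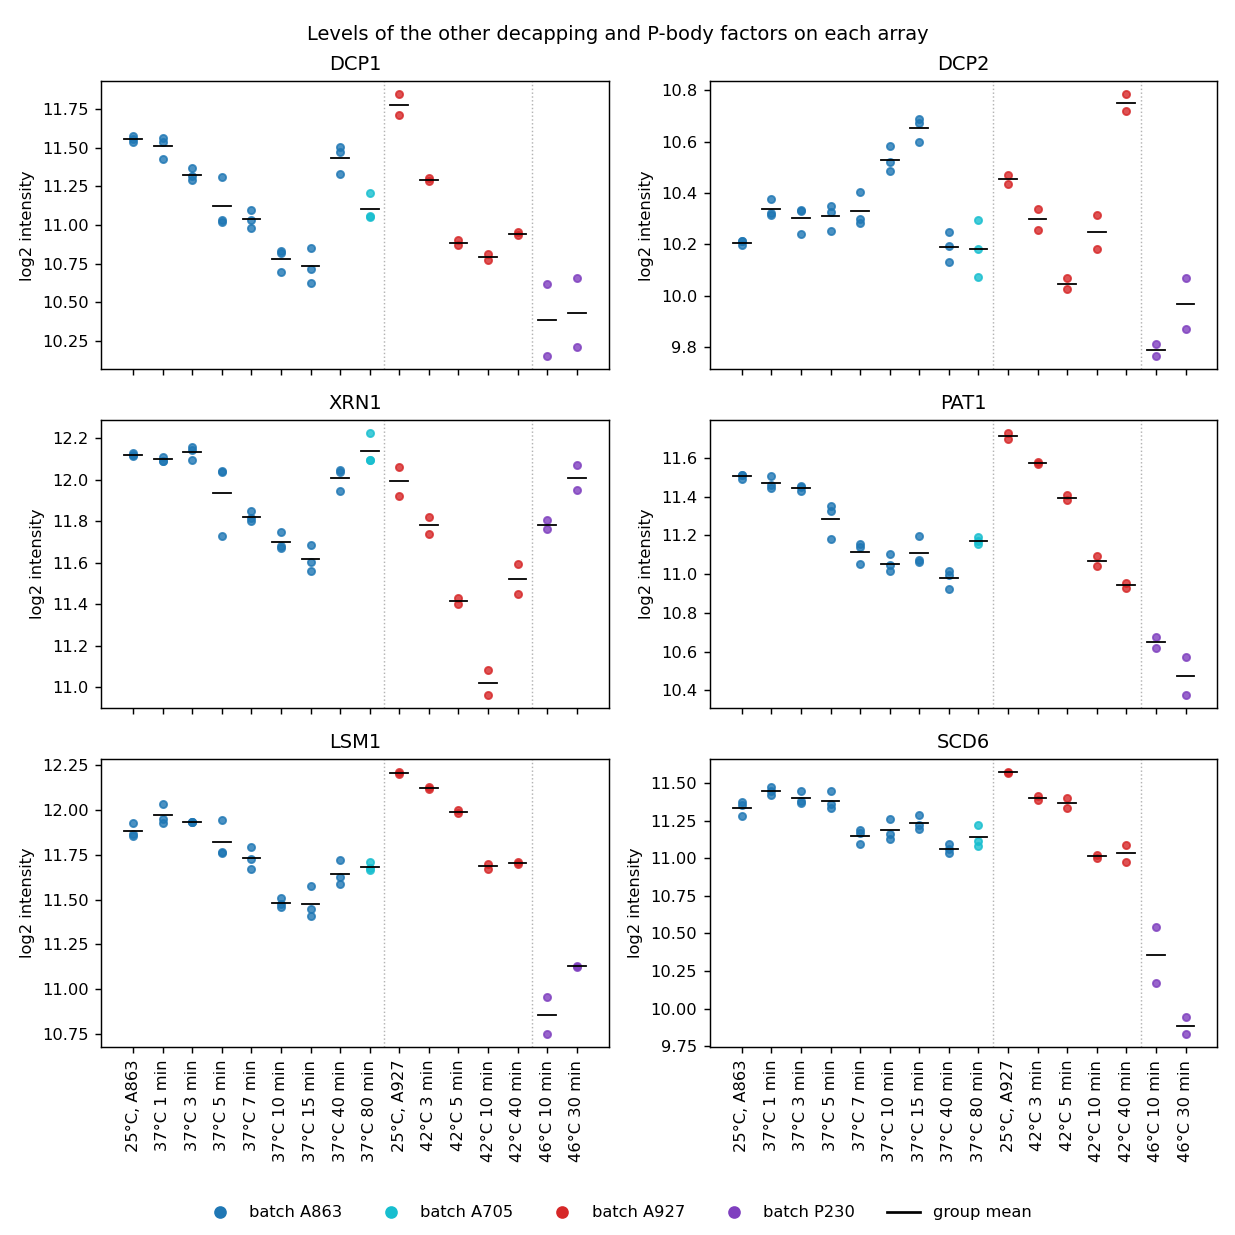
Log2 intensity of DCP1, DCP2, XRN1, PAT1, LSM1 and SCD6 on each array (points, coloured by batch) with the group mean (line), by temperature and time. DCP1 and XRN1 dip at 10 to 15 min and read higher again at 40 min at 37 °C, whereas PAT1 stays low, and DCP2 reads highest in its series at 37 °C 15 min and at 42 °C 40 min. Dotted lines part the 3 temperature series.

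The test of the difference between temperatures asked whether the change at 42 °C differed, in either direction, from that at 37 °C at the same time. At 3, 5 and 10 min 1 of 10 members, EDC2, differed by 2-fold or more with an adjusted p under 0.05. Of all genes 2.66%, 3.36% and 13.9% did. With no minimum change 2, 6 and 7 members passed, where 27.4%, 31.3% and 61.5% of all genes did. At 10 min EDC3 differed by -0.71, XRN1 by -0.55, DCP2 by -0.53 and EDC1 by 0.58, all short of 2-fold. The differences of EDC2 were 1.85 ± 0.10, 1.66 ± 0.10 and 2.12 ± 0.10, with the unequal controls described above. With the A961 arrays in the fit, the differences of EDC2 at 3 and 5 min no longer passed (adjusted p = 0.179 and 0.185). At 40 min 3 members differed by 2-fold or more with an adjusted p under 0.05, where 39.3% of all genes did. With no minimum change 10 of 10 members and 82% of all genes passed. The change of EDC2 was higher at 42 °C by 4.54 ± 0.10 (adjusted p = 4.81e-27). That of EDC1 was higher by 1.94 ± 0.20 (adjusted p = 1.9e-10) and that of DHH1 by 1.24 ± 0.18 (adjusted p = 1.56e-07). The mean levels at 42 and 37 °C were 14.02 and 10.98 for EDC2, 10.74 and 9.14 for EDC1, and 12.03 and 11.005 for DHH1. The unequal controls of EDC2 enter its difference at 40 min too. EDC3 differed by -0.97 ± 0.08 (-1.002, past 2-fold, without the first 42 °C array) and DCP1 by -0.71 ± 0.15, both short of 2-fold, and DCP2 by 0.31 ± 0.08. PAT1, LSM1, SCD6 and XRN1 differed by -0.24 to -0.36.

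**Figure D4:**
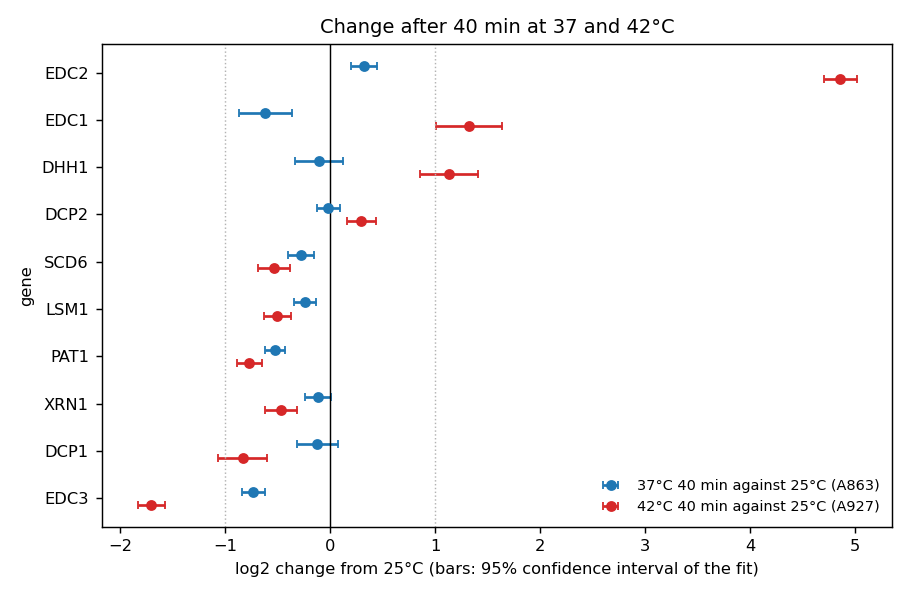
Log2 change of each factor after 40 min at 37 °C (3 arrays) and 42 °C (2 arrays) from the 25 °C control of its batch, with 95% confidence intervals of the fit. Only EDC2, EDC1 and DHH1 lie above 1, at 42 °C, and only EDC3 lies below -1, also at 42 °C.

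Signs of RNA length moved with some of these groups. The signal of the ACT1 control probes near the poly-A end minus that of the probes far from it was 1.33 ± 0.07 (SD, n = 2) at 42 °C 40 min and 0.75 ± 0.09 in the A927 control. It was 0.92 ± 0.08 (n = 3) at 37 °C 80 min and 0.52 ± 0.01 in the A863 control. At 42 °C 10 min, where EDC2, EDC1 and EDC3 were already called, it was 0.83 ± 0.09. Its part in the changes was not tested.

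Direct tests between times showed where levels turned. From 15 to 40 min at 37 °C 2 members changed, EDC2 and EDC1, both falling, where 16.1% of all genes changed. In the same interval DHH1 read lower by -0.86 ± 0.11 and DCP1 higher by 0.70 ± 0.09, neither reaching 2-fold. From 10 to 40 min at 42 °C 0 members changed by limma's test, where 23.6% of all genes did. At an unadjusted p under 0.05, 5 members and 4376 of all 5449 genes passed. From 10 to 30 min at 46 °C 0 members changed, where 0.239% of all genes did. At an unadjusted p under 0.05, 7 members and 2874 of all 5449 genes passed.

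At 46 °C the arrays had no control of their own batch, so their levels are given beside the 25 °C levels as a description. EDC2 read 13.01 and 12.73 after 10 min and 12.75 and 12.47 after 30 min, above all 5 unheated arrays. DHH1 read 11.86 and 12.18 after 10 min and 12.68 and 12.80 after 30 min, also above them, and 0.73 ± 0.14 higher at 30 than at 10 min (adjusted p = 7.98e-05). EDC1 read 8.90 and 8.68, then 8.90 and 8.48, below all unheated arrays, where at 42 °C it had been above them. The median of these arrays was lower, and the differences of EDC1 at 10 and 30 min were -0.96 and -1.06 from the A863 control and -0.63 and -0.73 from the A927 control. After all arrays were quantile normalised together they were -0.51 and -0.61, and -0.29 and -0.39.

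As deposited, most other members also read lower at 46 °C than in unheated cells. With all arrays quantile normalised together, EDC3 at 10 min differed by -0.89 from the A863 control and -1.01 from the A927 control. DCP2 then differed by -0.05 and -0.31 at 10 min and by 0.12 and -0.14 at 30 min. EDC3 was 9.40 and 9.24 after 10 min and 9.36 and 9.10 after 30 min. SCD6 was 10.54 and 10.17, then 9.94 and 9.83, a change of -0.47 ± 0.07 from 10 to 30 min. XRN1 was 11.76 and 11.80, then 12.07 and 11.95, within 0.325 of either control once quantile normalised together. DCP1 differed widely between replicates, at 10.15 and 10.62 after 10 min and 10.21 and 10.66 after 30 min.

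The members' courses over the 12 heated groups differed. As a description over 12 changes that share controls, EDC2 and EDC1 correlated at r = 0.93 and EDC1 and DHH1 at 0.89, while EDC3, PAT1, LSM1 and SCD6 correlated with each other at 0.83 to 0.92. Between EDC2, EDC1 or DHH1 and those 4 members r ran from -0.73 to -0.43, and DCP2 correlated with no other member beyond 0.23 in size. Over all genes, the course most like that of EDC2 was that of PKP1 (r = 0.99), which encodes a mitochondrial protein kinase, followed by PIC2 and NDL1 (both 0.98). PIC2, a mitochondrial carrier gene, changed by 1.93 at 37 °C 15 min and 4.65 at 42 °C 40 min. For EDC1 they were TIR2 (0.99), CTH1 and GFD1 (both 0.97), for DHH1 HRT1, YPT52 and CAB3 (all 0.97), and for EDC3 FCP1 (0.99), CDC14 (0.98) and FKH1 (0.97).

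Other genes of messenger RNA decay are given for 37 °C 15 min, where 29.6% of all genes were called and their median change was 0.06, and for 42 °C 40 min, where 45.6% were called and the median was 0.01. The lists are short, and their counts are a description beside these shares. Of the 5 genes of scavenger and nuclear decapping, DCS1 and DCS2 rose, by 2.30 ± 0.07 and 4.80 ± 0.10 at 37 °C 15 min and by 2.82 ± 0.08 and 5.62 ± 0.13 at 42 °C 40 min. Dcs1 hydrolyses the cap fragments that decay leaves and Dcs2 is its relative. RAT1, the nuclear exonuclease gene, fell at both times (-2.00 ± 0.06 and -2.27 ± 0.07), and RAI1 (-1.81 ± 0.11) and DXO1 (-1.70 ± 0.12) fell at 42 °C 40 min. The other 6 subunits of the ring that holds Lsm1 had 0 called at 37 °C 15 min (median -0.42) and 4 lower at 42 °C 40 min. These were LSM2, LSM3, LSM4 and LSM5, with changes of -1.23 to -1.08, beside LSM6 at -0.41 ± 0.09 and LSM7 at 0.08 ± 0.11. LSM1 at -0.50 ± 0.06 was not called.

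The enzymes that shorten the tail stayed mostly under 2-fold. Of the 9 measured genes of the Ccr4-Not complex 0 were called at 37 °C 15 min, and 1, CCR4, fell by 1.26 ± 0.09 at 42 °C 40 min. PAN2, of the 2 genes of the Pan2-Pan3 deadenylase, rose by 1.17 ± 0.08 there. The exosome, which degrades RNA from the tail end and also processes ribosomal RNA, had 10 of 12 genes lower at 37 °C 15 min (median -1.44) and 9 of 12 at 42 °C 40 min (median -1.53), where 29.6% and 45.6% of all genes were called, with medians of 0.06 and 0.01. RRP6 fell at both times (-3.03 ± 0.07 and -3.98 ± 0.09), as did DIS3, a catalytic subunit (-1.52 ± 0.09 at the first). Of the 4 genes of its cytoplasmic helper, the Ski complex, 0 were called at 37 °C 15 min and SKI7 rose by 1.11 ± 0.07 at 42 °C 40 min. Among 5 genes of nonsense-mediated decay 3 fell at each time, beside the 29.6% and 45.6% of all genes called. NAM7 (-1.03 ± 0.08 and -1.18 ± 0.10) and UPF3 (-1.03 ± 0.09 and -1.27 ± 0.11) fell at both, EBS1 at the first and NMD2 at the second.

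Among 7 genes of the PUF family and related regulators of decay, 4 rose and 1 fell at each time, where 29.6% and 45.6% of all genes were called in either direction. CTH1 rose by 1.14 ± 0.04 and 2.89 ± 0.05, TIS11 by 1.56 ± 0.11 and 2.65 ± 0.14, and JSN1 by 1.34 ± 0.09 and 2.31 ± 0.11. Cth1 and Tis11 are zinc finger proteins that promote decay of AU-rich messages. PUF4 fell (-1.23 ± 0.05 and -1.52 ± 0.06). The fourth that rose was PUF2 at 37 °C 15 min (1.33 ± 0.07) and MPT5 at 42 °C 40 min (1.75 ± 0.13). Of 21 measured genes of stress granules and other messenger RNA binding proteins, 1 rose and 6 fell at 37 °C 15 min and 0 rose and 9 fell at 42 °C 40 min. With rises and falls pooled, these counts lie near the shares of all genes called, 29.6% and 45.6%. By direction the list leaned to falls, where all genes were nearly even. Of all 5449 genes, 836 rose and 779 fell at 37 °C 15 min, and 1268 rose and 1219 fell at 42 °C 40 min. The difference in direction between the list and all genes was not tested at either time. TIF4631, an initiation factor scaffold, fell at both (-3.37 ± 0.09 and -3.81 ± 0.11). GIS2 (-2.25 ± 0.06), CDC33, the cap-binding factor gene (-1.99 ± 0.08), and PAB1, the poly-A binding protein gene (-1.81 ± 0.06), fell at 42 °C 40 min. At 37 °C 15 min VTS1 (-3.32 ± 0.13) and HRP1 (-1.92 ± 0.08) fell, and DBP1, a helicase gene, rose by 1.91 ± 0.09. As a reference for the heat response, 5 of 5 heat shock genes rose at both times, HSP104 by 2.67 ± 0.05 and 3.83 ± 0.06.

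**Figure D5:**
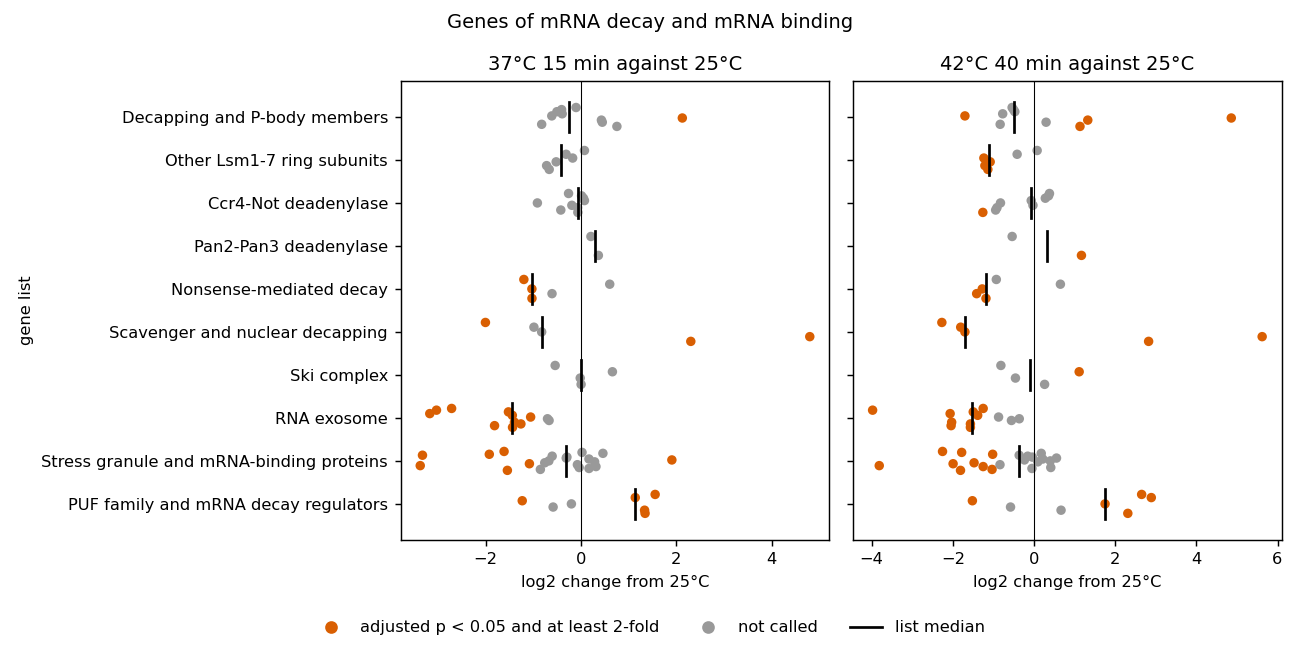
Log2 change of each gene (points) of the decapping and P-body factors and of 9 related lists at 37 °C 15 min and 42 °C 40 min, with the list median (line). EDC2, DCS1 and DCS2 lie to the right and most exosome genes to the left at both times.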

How the data were processed

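Total RNA from 45 arrays was made into biotin-labelled RNA with an Affymetrix kit that starts from the poly-A end and was hybridised, per the labels. RMA and affy are named in the submitters' processing notes, and the deposited table holds 1 log2 intensity per probe set and array. For tool versions and a genome build, the sources used here give none. Of 5900 probe sets, 137 were controls, 265 others had no symbol, 0 had several and 5498 had 1. All 5498 matched the R64 annotation by gene identifier, which updated 12 symbols. The brightest probe set stood for each of 47 genes with several, which left 5449 genes.

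On 41 arrays, limma 3.58.1 (R 4.3.3) fitted 1 mean per group with lmFit and eBayes, which left 25 residual degrees of freedom. Tests were two-sided and unpaired, with Benjamini-Hochberg adjustment over all genes and the limits given above. The control was the unheated group of the same batch, and for 37 °C 80 min that of A863. The number of arrays limits precision. Same-numbered heated and control arrays deviated together (every r over 0.1) in 1 of 12 comparisons, 37 °C 3 min, with r from -0.29 to 0.32 over all 12. At 37 °C 1 min r was 0.26, 0.0999 and 0.20, which narrowly missed that limit. A replicate block changed no member's call. With it 178 genes were called in place of 177 at 3 min, and 13 as before at 1 min.

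The members, lists and tests were chosen with earlier results of these data known. Genes named are the 10 members, genes of lists of 12 or fewer, up to 4 called genes with the largest change of the longer list per comparison, heat shock and label markers, and the 3 genes most correlated with each called member. The procedure was tested on simulated data. NGR1, of the stress granule list, was not analysed here.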

Additional observations from a re-analysis of the deposited data

Results flagged for a closer look

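A first set of results differed between temperatures by a test of the difference itself. The change of EDC2 at 42 °C exceeded that at 37 °C by 1.85 at 3 min, 1.66 at 5 min, 2.12 at 10 min and 4.54 at 40 min on the log2 scale. The A927 control minus the A863 control of EDC2 was -1.503, and the part of this gap in the differences was not tested. At 40 min the change of EDC1 was higher by 1.94 and that of DHH1 by 1.24. Of the heated arrays at 40 min, all at 42 °C lay above their controls for these 3 genes, while at 37 °C all lay above for EDC2 and below for EDC1 and DHH1.

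A second set lay in the 4 arrays left out of the comparisons, where the levels of 2 members stood more than 2-fold above the highest A927 control array (10.91 for DHH1 and 9.19 for EDC2). For EDC2 this depends on the control, since the arrays at 10.56 and 10.55 lay below all 3 A863 control arrays (10.63 to 10.70), which belong to another set. On the arrays labelled 42 °C 1 min, DHH1 read 12.09 and 13.13 and EDC2 10.56 and 13.27. On those labelled 42 °C 80 min, DHH1 read 13.34 and 12.20 and EDC2 13.31 and 10.55. The first array of one label and the second of the other were alike for both genes. EDC3 read 10.71 and 8.38 on the former pair and 8.26 and 10.66 on the latter, and EDC1 8.40 and 9.06, then 8.69 and 8.60, below both A927 control arrays on all 4. These arrays have no control of their own batch, and whether labels or treatment account for the disagreement was not tested.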

How the results depend on the processing

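The called changes of single members kept their direction under every alternative run (all 45 arrays, arrays of the compared batches, an intensity trend, a common array median, joint quantile normalisation, a floor filter, the mean of probe sets, no minimum change, array weights, the replicate block and each array left out). Of 22 such changes, 3 no longer passed with all 45 arrays in the fit, all of EDC2. They were 37 °C 3 min (1.16, adjusted p = 0.0862) and the differences between temperatures at 3 and 5 min (adjusted p = 0.179 and 0.185). EDC3 at 42 °C 10 min was -0.96 after joint quantile normalisation, and EDC1 from 15 to 40 min at 37 °C -0.86 and -0.97 without 1 array each. The members changed at 1 or more times numbered 1 at 37 °C, 4 at 42 °C, 3 for the difference between temperatures, 2 from 15 to 40 min at 37 °C, 0 from 10 to 40 min at 42 °C and 0 from 10 to 30 min at 46 °C. With no minimum change they were 10, 10, 10, 10, 5 and 7. For the last 3 of these, 76.5%, 79.3% and 46.3% of all genes passed with no minimum change, and 16.1%, 23.6% and 0.239% with it. For the first 3, which pool the times, the share of all genes was not counted. At single times with no minimum change it ran from 14.1% to 85.1% at 37 °C. At 42 °C it ran from 53.7% to 87%, and for the difference between temperatures from 27.4% to 82%. Leaving out arrays in turn gave 1 to 2 for 15 to 40 min at 37 °C and 4 to 6 at 42 °C. There DCP1 and XRN1 at 10 min passed 2-fold without 1 array (-1.05 and -1.04 without the first A927 control array, -1.001 and -1.03 without 1 array of 10 min), and so did the 40 min difference of EDC3 (-1.002), which made 3 to 4 for the difference between temperatures. The replicate block gave 1, 4, 3, 2, 0 and 0 and changed no member's call. A block with the A927 control numbers crossed, added after seeing the data, also gave 4 at 42 °C. Counts over all genes moved by over 1.5 times with no minimum change in every comparison (770 for 13 at 37 °C 1 min to 4742 for 2487 at 42 °C 40 min). With all 45 arrays they were 109 for 177 at 37 °C 3 min, 307 for 492 at 42 °C 3 min, 39 for 145, 71 for 183 and 449 for 759 for the difference at 3, 5 and 10 min, and 6 for 13 at 46 °C. That last count was 0 on its own batch and 4 to 68 with arrays left out. Except as stated the cause was not tested. All members read well above the deleted genes, and whether background or the upper end of the range limits these values was not tested.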
